A study of Mus musculus with 16 samples.

Results

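The full induction of G1E-ER4 cells was examined by setting the 2 libraries made at 200 nM beta-estradiol, the highest dose of the series, against the 2 libraries made without it. These 4 libraries, of 16 in the series, were taken by the dose in their labels, and all 23410 gene symbols of the deposited table were considered, of which 10080 had enough counts to be tested. G1E-ER4 is an established mouse erythroid line without functional endogenous GATA1, in which a transgene makes GATA1 joined to the hormone-binding part of the estrogen receptor. Both groups carried that fusion and grew in the same Iscove's medium with 15% fetal serum, stem cell factor and erythropoietin. The groups differed, as labelled, only in the dose of beta-estradiol, 0 nM or 200 nM; the labels used here name no length of exposure. No cells without the fusion were in the series, so effects of the released GATA1 and effects of beta-estradiol by other routes cannot be told apart. The labels number the replicates without saying that they were separate cultures, so p-values measure the spread between libraries, which may be technical. In bulk RNA, a change in how many cells of a type are present and a change of RNA per cell cannot be told apart.

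GATA1 is a zinc finger transcription factor that binds GATA motifs and turns on globin genes, heme synthesis and red cell membrane genes, while it turns off genes of the progenitor state such as Gata2 and Kit. At many erythroid genes it works together with TAL1, LDB1 and the CACCC-binding factor KLF1. As erythroid cells mature they stop dividing, shrink, fill with hemoglobin, and lose nucleoli, mitochondria and ribosomes in an ordered way. G1E-ER4 cells follow the early and middle part of that course once the fusion enters the nucleus.

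Promoters of genes that gained and lost the most are shown first, because these genes are the ones the results below turn on. Each run is 300 bases, from 250 bases before to 50 bases after the RefSeq start of the gene on GRCm38.p6, written 5′ to 3′ on the strand of the gene. Capitals mark matches to a GATA motif (AGATAA, the variant with a first T in place of A, and both with a final G in place of A), a CACCC box (CCACACCC, and beside it CCGCACCC, and beside these CCACGCCC) or an E-box (CACGTG), on either strand. Each motif was searched by itself, so matches of different motifs may overlap. Beta-s is the table's older symbol for Hbb-bs, an adult beta-globin gene, and its promoter lies at chr7:103827879-103828178 on the minus strand. The promoter of Hba-a2, an adult alpha-globin gene, lies at chr11:32296242-32296541 on the plus strand. That of Ncl, which encodes the nucleolar protein nucleolin, lies at chr1:86359406-86359705 on the minus strand. The upstream one of 2 listed promoters of Ldha, the lactate dehydrogenase A gene, lies at chr7:46845554-46845853 on the plus strand.
Beta-s: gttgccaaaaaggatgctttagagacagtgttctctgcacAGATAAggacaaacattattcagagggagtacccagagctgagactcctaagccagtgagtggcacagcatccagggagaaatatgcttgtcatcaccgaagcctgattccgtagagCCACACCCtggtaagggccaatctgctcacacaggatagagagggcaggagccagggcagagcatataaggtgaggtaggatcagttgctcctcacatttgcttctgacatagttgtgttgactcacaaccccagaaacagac
Hba-a2: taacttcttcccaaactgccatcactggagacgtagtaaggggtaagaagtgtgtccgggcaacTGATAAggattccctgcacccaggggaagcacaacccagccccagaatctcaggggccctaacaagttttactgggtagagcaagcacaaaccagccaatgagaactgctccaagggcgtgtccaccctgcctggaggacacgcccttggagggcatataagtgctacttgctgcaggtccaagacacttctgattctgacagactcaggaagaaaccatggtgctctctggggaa
Ncl: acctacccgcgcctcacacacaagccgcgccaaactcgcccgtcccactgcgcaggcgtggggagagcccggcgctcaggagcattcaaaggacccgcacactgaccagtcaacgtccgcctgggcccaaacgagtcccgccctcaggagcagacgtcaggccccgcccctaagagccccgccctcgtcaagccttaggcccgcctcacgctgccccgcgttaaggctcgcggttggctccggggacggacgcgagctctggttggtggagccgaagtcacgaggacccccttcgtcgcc
Ldha: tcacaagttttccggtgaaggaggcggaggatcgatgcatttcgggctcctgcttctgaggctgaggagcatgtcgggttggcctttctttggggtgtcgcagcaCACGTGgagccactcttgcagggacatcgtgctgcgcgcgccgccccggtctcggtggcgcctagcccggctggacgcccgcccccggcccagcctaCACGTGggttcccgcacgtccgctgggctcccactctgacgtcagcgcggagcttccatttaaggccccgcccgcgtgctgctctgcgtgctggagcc
The Beta-s window holds 1 GATA match and 1 CACCC match, and the Hba-a2 window holds 1 GATA match. The Ncl window holds none of these letters, and the Ldha window holds 2 E-box matches and no GATA match. A match is a description of letters and was not tied to binding here. A promoter was listed for 8121 of the tested genes. A GATA match was in 29.8% of all 32851 listed promoters, in 18.8% of those of tested genes, in 21.7% of those of genes at least 2-fold higher at 200 nM and in 18.5% of those of genes at least 2-fold lower. A CACCC match was in 15.7%, 18.2% and 16.9% of the promoters of the last 3 sets, and an E-box in 10.6%, 9.9% and 12.9%. The windows shown do not stand for all genes of their kind. Among the other large gains, the listed promoters of Ftl1, Ucp2 and Prdx2 held no GATA match, and that of Mthfd1, among the large losses, held 1. A GATA match was in 30.8% of the 13 promoters listed for 10 of the 12 largest gains and in 6.25% of the 16 listed for 8 of the 12 largest losses. By class, it was in 66.7% of 15 promoters of red cell membrane and skeleton genes, 23.1% of 13 of heme synthesis, 22.5% of 40 of nucleolar assembly families, 20.6% of 68 of cytosolic and 24.7% of 73 of mitochondrial ribosomal proteins. E-boxes were in 30.8% of 13 promoters of cytosolic aminoacyl-tRNA synthetase genes, which charge tRNAs with amino acids, and in 30.8% of 13 promoters of heme synthesis genes. All of these are shares of promoters and not of genes, and 1 gene can supply several. Eif5a supplied 6 of the 16 promoters of the largest losses, some of them overlapping, and Ldha and Hspd1 supplied 2 each. The shares of gains and losses are therefore not to be compared as shares of genes.

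The 4 libraries held 12834685 to 14847803 counts. On the log2 CPM scale, replicates correlated across genes with r = 0.995 at 0 nM and 0.992 at 200 nM, where genes are not independent replicates. Gata1 counts, which can come from the transgene, stood at 755 and 667 CPM at 0 nM and at 1675 and 1610 CPM at 200 nM. Expression is given as CPM, counts set against the size of the library after TMM scaling. There were no spike-ins, so a level is relative to the rest of its library. Rn45s, the ribosomal RNA precursor, took 9.61% and 9.53% of the counts at 0 nM and 14.6% and 15.3% at 200 nM.

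More genes were called than not. At a Benjamini-Hochberg adjusted p under 0.05 (edgeR quasi-likelihood test), 4086 genes (40.5% of those tested) were higher and 3977 (39.5%) lower at 200 nM, 80% in all. At least 2-fold changes were found in 1986 genes (19.7%) upward and 1754 (17.4%) downward. These percentages are the background for each gene class below. At least 4-fold changes numbered 826 upward and 562 downward, and at least 16-fold changes 204 and 100, so the upward tail was longer. The split between directions depends on the scaling: with library size alone, 2819 genes were higher and 5396 lower, and the median gene moved from a log2 fold change of 0.02 to −0.36, and with library sizes that leave out Rn45s, globin and mitochondrial genes the median was −0.18 and the split 3405 to 4694. Of the 2017 genes not called, 1399 had an absolute log2 fold change under 0.25, and their median level was 11.1 CPM against 41.2 CPM for called genes.

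Abundant transcripts were called more often than rare ones. On the TMM scale the changes of those with the highest mean over both doses were mainly gains. From 1 to 10 CPM, 68% of 2071 genes were called, from 10 to 100 CPM 83.9% of 5194, from 100 to 1000 CPM 90.7% of 2115, and at 1000 CPM or more 96.2% of 78. Below 1000 CPM, higher and lower calls were nearly balanced in each range. Among the 78 most abundant genes, 51 were higher and 24 lower, and 29 of the former and 4 of the latter changed at least 2-fold. The ranges use the mean over the 4 libraries, so a gene can enter the top range through 1 dose alone. Slc4a1 did so through 200 nM (means of 83.2 and 6685 CPM) and Car1 through 0 nM (2506 and 28.7 CPM). The split is thus not one of genes abundant before induction, which was not counted. The split of the 78 genes and the balance below 1000 CPM rest on TMM scaling. The median log2 fold change of the 78 genes was 0.38, and library size alone moves the median of all genes from 0.02 to −0.36. The split of the 78 genes with library size alone was not counted. More reads give more power to call a gene, so the share called and the level are not independent.

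**Figure D1:**
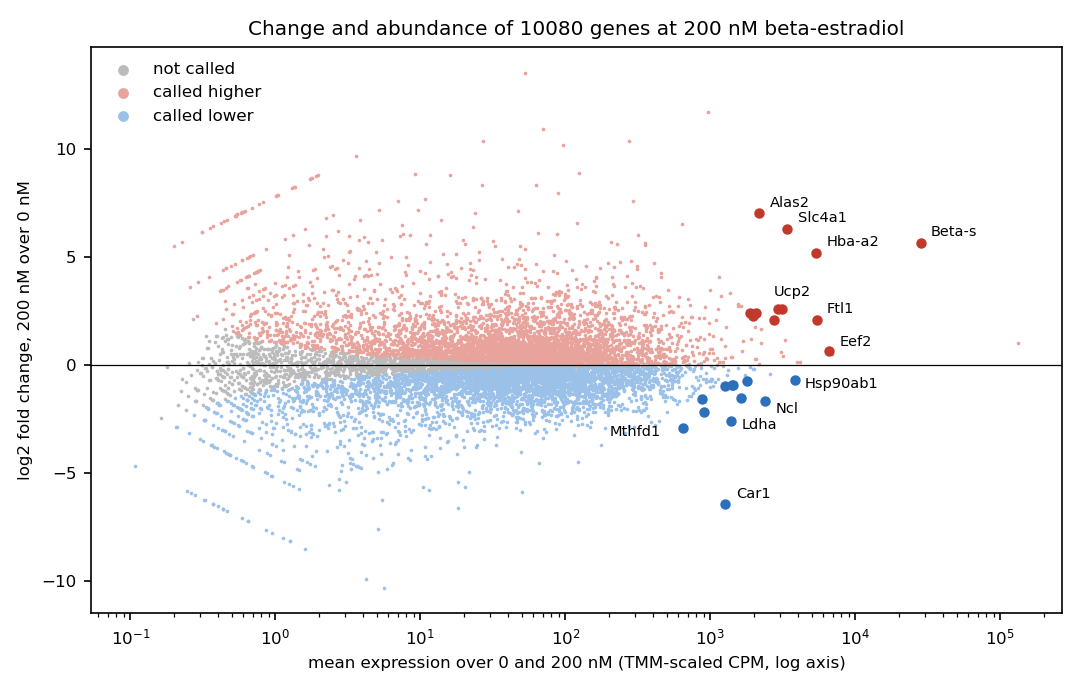
Log2 fold change (200 nM over 0 nM) against mean TMM-scaled CPM over the 4 libraries, on a log axis, for the 10080 tested genes, with the 12 largest gains (dark red) and 12 largest losses (dark blue) of CPM marked. Grey points are the 2017 genes not called, and the unlabelled point farthest to the right is Rn45s. With library size alone the median gene would sit at −0.36 instead of 0.02.

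The 12 genes that gained the most CPM belonged to hemoglobin, heme, iron, the red cell membrane and antioxidant defence, with a mitochondrial carrier and a translation factor among them. They were chosen among called genes that were higher in both 200 nM libraries than in both 0 nM libraries. That separation and the small adjusted p are thus no further result. The log2 fold changes of the 12 genes ran from 0.68 to 7.04, with adjusted p from 1.83e-61 to 8.34e-13 (edgeR quasi-likelihood test, n = 2 per dose). With Rn45s set aside, whose own gain in CPM was larger than that of Beta-s, they made up 27.4% of the CPM gained by all genes that gained, and Beta-s by itself 14.1%.

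Beta-s, on chromosome 7 from 103826534 to 103828096 (minus strand, GRCm38), was at 1081 and 1074 CPM at 0 nM and at 55518 and 55232 CPM at 200 nM. The log2 fold change was 5.68 ± 0.07 (SE), a ratio of 51.4, and the gap between doses far exceeded the gap between replicates. Per kilobase of exon, Beta-s was the tenth most abundant transcript at 0 nM with 1403 CPM per kb and the first at 200 nM with 72103. Hba-a2, on chromosome 11 from 32296489 to 32297298, was at 278 and 281 CPM without beta-estradiol and at 10545 and 10242 CPM with it (log2 fold change 5.22 ± 0.03). Its rank per kilobase moved from 61 to 2. Both were thus already well counted at 0 nM. The adult Hbb-b1 was at 14.2 and 13.2 CPM and then at 1236 and 1297 CPM, and the embryonic Hbb-bh1 went from 0.736 and 0.378 CPM to 1946 and 1918 CPM and was the fifth per kilobase at 200 nM. Reads of near-identical globin genes (Beta-s with Hbb-b1, Hba-a2 with its copy Hba-a1) may be split or dropped by the counting, so their single levels are uncertain.

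Heme needs iron, which enters through the transferrin receptor, and a pathway that begins with ALAS2. Alas2, encoding the erythroid first enzyme (chromosome X, 150547375 to 150570638), had 32.9 and 32.9 CPM at 0 nM and 4355 and 4286 CPM at 200 nM, a 131-fold difference. Alad, the next enzyme, rose from 641 and 646 CPM to 3508 and 3444 CPM, and Fech, which inserts the iron in the last step, from 684 and 684 to 3248 and 3296 CPM. The first enzyme thus changed far more than the later ones, which were abundant at 0 nM. Tfrc, the transferrin receptor, was at 1040 and 1033 CPM and then at 4468 and 4475 CPM. Ftl1, the ferritin light chain that helps store iron, rose from 2041 and 2018 to 8858 and 8691 CPM, a log2 fold change of 2.11 ± 0.03. Blvrb, a biliverdin reductase and flavin reductase of red cells, went from 583 and 582 CPM to 3173 and 3126 CPM.

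Outside hemoglobin, heme and iron, the largest gain was that of Slc4a1, the band 3 anion exchanger of the red cell membrane (chromosome 11, 102348824 to 102366203). It was at 81.3 and 85.0 CPM at 0 nM and at 6728 and 6643 CPM at 200 nM, a log2 fold change of 6.33 ± 0.04. Ucp2, a carrier of the inner mitochondrial membrane, rose from 879 and 863 CPM to 5396 and 5302 CPM. Prdx2, a peroxiredoxin that removes hydrogen peroxide and is a major red cell protein, rose from 841 and 826 CPM to 5067 and 4997 CPM. For these 3 genes replicates differed by far less than the doses, where non-overlap of the groups was a condition of their choice. Eef2, the elongation factor that moves the ribosome along the mRNA, was abundant throughout, at 5101 and 5091 CPM and then 8247 and 8062 CPM, and its log2 fold change of 0.68 ± 0.02 was the smallest of the 12.

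The 12 genes that lost the most CPM encode nucleolar proteins, chaperones, and proteins of glycolysis, folate metabolism, replication and RNA binding, along with the carbonic anhydrase Car1. They were chosen by the same rule in the other direction, so being called and lower in both 200 nM libraries is no further result. The log2 fold changes of the 12 genes ran from −6.45 to −0.68, with adjusted p from 1.38e-53 to 4.44e-28 (edgeR quasi-likelihood test, n = 2 per dose). These 12 genes accounted for 8.39% of all CPM lost, so losses were spread over more genes than gains.

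Car1 (chromosome 3, 14766216 to 14808368), the second most abundant transcript per kilobase at 0 nM, was at 2498 and 2514 CPM and fell to 31.0 and 26.5 CPM, 87.2-fold lower. Its relative Car2 moved the other way, from 2429 and 2460 to 3724 and 3744 CPM (chosen after its values were seen). Ncl (chromosome 1, 86344719 to 86359400) went from 3617 and 3648 CPM to 1161 and 1157 CPM, and Npm1, another major nucleolar protein, from 2431 and 2427 to 841 and 846 CPM. Both nucleolar genes were thus about 3-fold lower, with log2 fold changes of −1.65 ± 0.03 and −1.53 ± 0.03. Ldha (chromosome 7, 46841475 to 46855627), which makes lactate from pyruvate, fell from 2355 and 2431 CPM to 386 and 408 CPM, 6.02-fold. Mthfd1, a trifunctional enzyme of the folate cycle, fell from 1129 and 1147 CPM to 154 and 150 CPM, 7.48-fold.

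Chaperones of several compartments were among the losses. The mitochondrial Hspd1 (Hsp60) fell from 1481 and 1479 CPM to 328 and 322 CPM, and the mitochondrial Hspa9 from 1293 and 1326 to 441 and 434 CPM. The cytosolic Hsp90ab1 went from 4677 and 4712 CPM to 2936 and 2934 CPM and remained among the 25 most abundant transcripts per kilobase. The mitochondrial pair thus lost more, with log2 fold changes of −2.19 and −1.58 against −0.68. Eif5a, a translation factor, fell from 2215 and 2231 to 1332 and 1335 CPM. Mcm6, a subunit of the replicative helicase, went from 1666 and 1668 CPM to 866 and 850 CPM. The RNA-binding proteins Cnbp and Hnrnpa2b1 had log2 fold changes of −0.93 and −0.90.

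**Figure D2:**
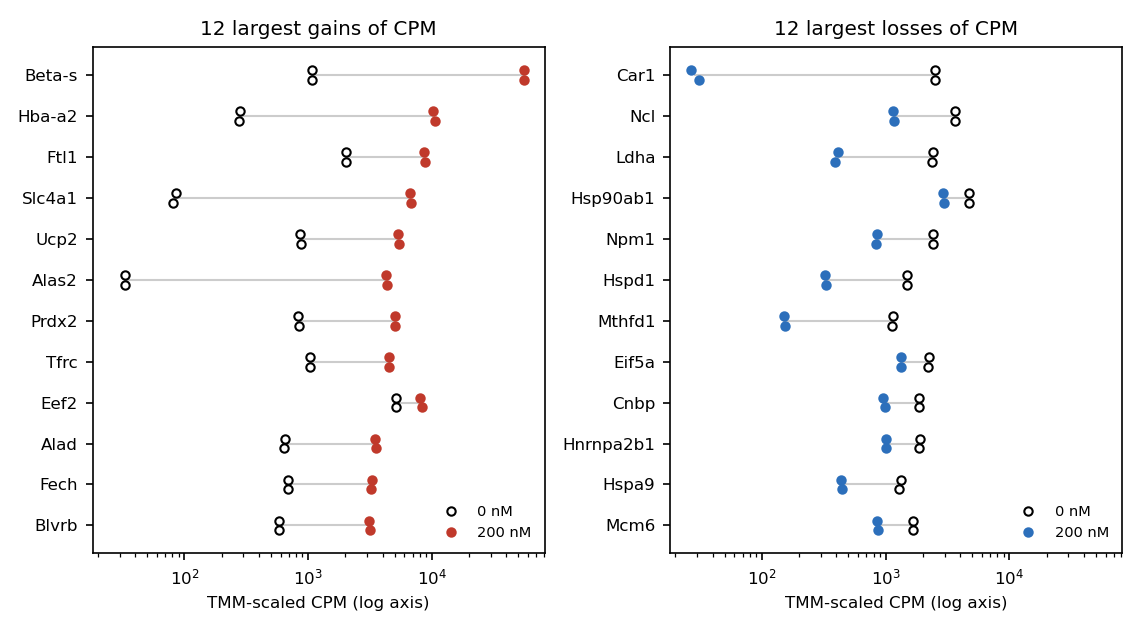
TMM-scaled CPM in each library on a log axis for the 12 genes with the largest gain (left) and the 12 with the largest loss (right) of mean CPM; open circles are the 2 libraries at 0 nM, filled circles the 2 at 200 nM, and grey lines join the means. Non-overlap of the groups was a condition for the choice of the 24 genes, and replicates nearly coincide.

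Some transcripts of high CPM kept their TMM-scaled level. Among the 6 genes of highest CPM with an absolute log2 fold change under 0.1 were the ribosomal protein gene Rps14, the cytochrome oxidase subunit Cox4i1, the RNA-binding protein gene Hnrnpk, the initiation factor subunit Eif3c and the methionine aminopeptidase Metap2. Rps14 was at 1253 and 1241 CPM and then at 1219 and 1213 CPM, and Hnrnpk at 1011 and 1015 CPM and then at 1003 and 999 CPM. Of the 5 genes named here 4 were not called. Metap2 was called higher (edgeR quasi-likelihood test, adjusted p = 0.0469), but not with any 1 of the 4 libraries left out. Steadiness depends on the scaling, and as plain shares of the library all 5 fell: with library size alone Cox4i1 (0.03) and Metap2 (0.06) turned to −0.35 and −0.32, and Rps14, Hnrnpk and Eif3c to −0.42, −0.40 and −0.39.

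The gains and losses changed how the counts were spread over genes. Outside Rn45s, the top gene of a library held 0.684% of the counts at 0 nM and 5.50% at 200 nM, the top 10 genes 4.53% and 11.6%, and the top 100 genes 17.9% and 27.3%. The genes that hold 50% of these counts numbered 787 and 786 at 0 nM and 546 and 551 at 200 nM. Transcripts therefore lay in fewer genes after induction, while the number of genes detected, 11664 and 11644 against 11608 and 11738, overlapped between the doses. The 100 genes of highest CPM at each dose, a rank that also depends on transcript length, shared 51 genes. Genes that entered the list included Abcb10, Arhgdib, Tuba4a, Slc25a39, Gmpr, Sptb, Ctsb and Lmna, and genes that left it included Mt1, C1qbp, Ipo5, Psat1 and Tpi1 (all chosen after their values were seen). Abcb10, a mitochondrial transporter linked to heme synthesis, rose from 126 and 126 CPM to 2204 and 2129 CPM. Arhgdib, a regulator of small GTPases in blood cells, rose from 422 and 428 to 2850 and 2845 CPM, and Gmpr, which turns GMP into IMP, from 406 and 400 to 2752 and 2676 CPM. C1qbp, a mitochondrial matrix protein, fell from 815 and 827 CPM to 184 and 179 CPM, and Mt1, a metallothionein, from 751 and 769 to 127 and 125 CPM.

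**Figure D3:**
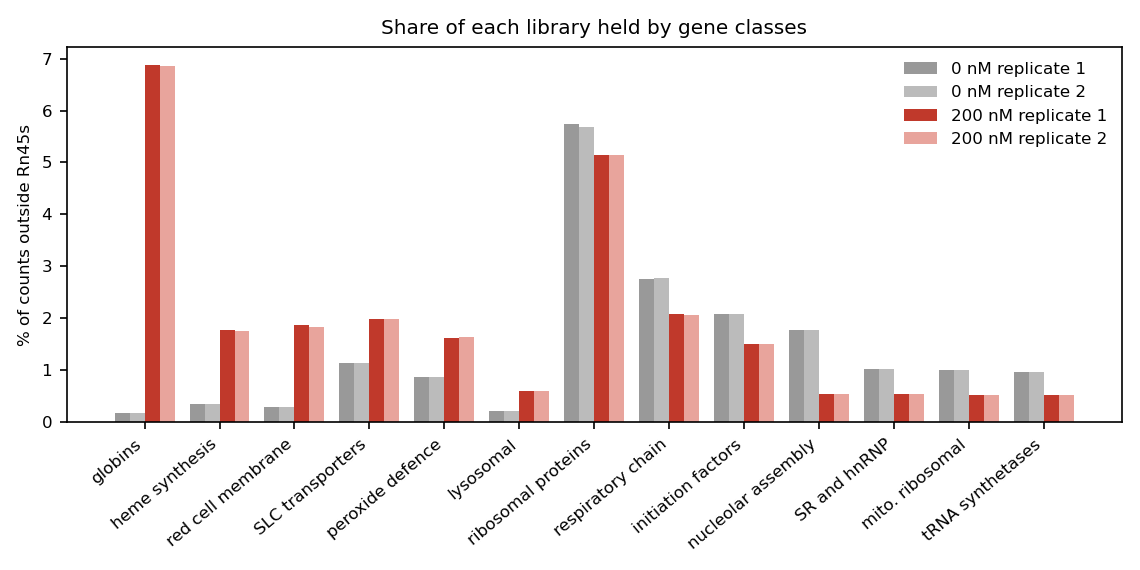
Share of counts outside Rn45s held by 13 gene classes in each of the 4 libraries, in percent; classes may share members. Globins went from 0.167% to 6.87% and the nucleolar assembly families from 1.77% to 0.535% (means of 2 libraries); these are plain shares without TMM scaling, on which the ribosomal proteins fell from 5.71% to 5.15%.

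Gene classes were read by how many of their tested members were called in each direction, beside the background of 40.5% higher and 39.5% lower over all genes. Genes for the making of ribosomes fell broadly. Of 44 tested members of nucleolar ribosome assembly families (such as the Nop, Utp, Rrp and Nol genes, with Ncl and Npm1 among them), 39 were lower, 31 of them at least 2-fold, and 2 were higher, with a median log2 fold change of −1.34. Rrp1b, a nucleolar protein, fell from 112 and 111 CPM to 14.5 and 10.6 CPM, the largest change of the class. Of 14 subunits of RNA polymerases I and III, which make ribosomal RNA and tRNA, 12 were lower and 1 higher (median −0.94). Polr1b, the second largest subunit of polymerase I, went from 207 and 201 CPM to 34.9 and 38.3 CPM. Of 13 subunits of polymerase II, which makes mRNA, 9 were lower and 1 higher (median −0.63), and 3 of the 9 fell at least 2-fold.

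The finished parts of the ribosome did not follow the assembly factors. Of 78 cytosolic ribosomal protein genes, 33 were higher, 18 lower and 27 not called, with a median of 0.04, a direction that flips to −0.34 with library size alone (5 higher, 62 lower) and to −0.15 with library sizes without Rn45s, globin and mitochondrial genes (18 higher, 43 lower). On each of these scalings the median lay close to that of all genes. Rpl4 was at 3722 and 3722 CPM and then at 4182 and 4180 CPM, a log2 fold change of 0.17 that turned to −0.21 with library size alone. Rpsa, which encodes a small-subunit protein, was the member with the highest change, from 1491 and 1495 to 3038 and 2983 CPM. Mitochondrial ribosomal proteins differed from the cytosolic ones: of 76 genes 64 were lower and 7 higher (median −0.61). Mrpl12 fell from 262 and 266 CPM to 60.9 and 56.1 CPM, 4.51-fold.

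Genes of the translation machinery around the ribosome were mostly lower, with exceptions at the elongation step. Cytosolic aminoacyl-tRNA synthetases had 17 of 20 members lower and 2 higher (median −0.68). Yars, the tyrosyl-tRNA synthetase, fell from 303 and 316 to 139 and 139 CPM, whereas Aars, the alanyl enzyme, was at 393 and 402 CPM and then at 539 and 544 CPM. Initiation factors had 24 of 37 members lower and 8 higher (median −0.46), with Eif1a falling from 360 and 362 to 101 and 99.0 CPM and Eif1 rising from 322 and 302 to 766 and 755 CPM. Of 6 genes with the symbol of an elongation factor, Eef2 and Eef1a1 were higher and 4 were lower, with Eef1e1 counted among the 4 by its symbol. Eef1a1, which brings tRNAs to the ribosome, rose from 5644 and 5610 to 8185 and 8029 CPM, and Eef1e1, a small protein of the synthetase complex, fell from 153 and 144 to 33.4 and 33.6 CPM. Pabpc1, which binds poly(A) tails, rose from 1100 and 1067 to 3420 and 3410 CPM (chosen after its values were seen).

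Mitochondrial aminoacyl-tRNA synthetases were mostly lower, while their summed level was higher. Of 17 members 14 were lower, 10 at least 2-fold, and 2 were higher, Lars2 and Fars2 (median −1.17). Fars2 turned to −0.01738 with library size alone. Aars2, for example, fell from 60.0 and 61.5 to 19.5 and 17.4 CPM. Yet the summed CPM of the class went from 3067 to 5109, mainly through Lars2, the mitochondrial leucyl enzyme. Lars2 was at 2040 and 1981 CPM at 0 nM and at 4309 and 4791 CPM at 200 nM, a log2 fold change of 1.18 ± 0.06. The share of Rn45s rose beside it, by a ratio of 1.56, and the library with the higher Rn45s share at 200 nM (replicate 2) also had the higher Lars2 value. The part of ribosomal RNA reads in this result was not tested.

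RNA handling in the nucleus was lower in most of its classes. All 10 subunits of the RNA exosome, which trims and degrades RNA, were lower, 7 at least 2-fold, with Exosc7 going from 191 and 194 CPM to 50.6 and 48.7 CPM. Of 36 spliceosomal snRNP and LSm proteins 27 were lower and 5 higher (median −0.86), of 30 SR and hnRNP splicing proteins 21 and 5 (median −0.42), and of 49 RNA helicases 33 and 10 (median −0.47). Srsf7, a splicing activator, fell from 429 and 429 to 136 and 135 CPM, and the nucleolar helicase Ddx21 from 336 and 319 to 63.1 and 67.0 CPM. Snrnp25, a protein of the minor spliceosome, stood out in the other direction, from 57.5 and 56.7 CPM to 218 and 206 CPM. Traffic through the nuclear envelope followed the same direction. Of 27 nucleoporins 23 were lower and 4 higher (median −0.53), and of 23 importins and exportins 18 were lower and 3 higher (median −0.71). Ipo5, which imports ribosomal proteins and histones, fell from 1075 and 1085 to 404 and 385 CPM, and Xpo7, an exportin, was among the higher ones, from 61.1 and 57.9 CPM to 102 and 94.7 CPM.

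Genes of the pathways that make nucleotides were mostly lower. All 12 purine synthesis genes had negative log2 fold changes, 11 were called, 10 of them at least 2-fold, and the median was −1.36. Gart, a trifunctional purine enzyme, fell from 726 and 715 CPM to 109 and 104 CPM, 6.78-fold, while Paics, also of this pathway, fell only 1.26-fold, from 744 and 750 to 596 and 588 CPM. Pyrimidine and deoxynucleotide synthesis had 13 of 17 members lower and 3 higher (median −1.15). Dctd, a deaminase of deoxycytidylate, went from 39.7 and 44.7 CPM to 1.84 and 0.932 CPM, and Dck, the salvage kinase for deoxycytidine, rose from 128 and 121 to 316 and 336 CPM. Of the ribonucleotide reductase subunits, Rrm1 was near its former level, with a log2 fold change of 0.13 that turned to −0.25 with library size alone. The log2 fold change of Rrm2 was −0.45. Serine and one-carbon metabolism had 10 of 12 members lower and 2 higher, with the lowest median, −1.38, among classes of at least 8 tested genes.

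Mitochondrial classes split by function. Import of proteins into the organelle had 23 of 29 genes lower and 3 higher (median −0.72), and Tomm40, the channel of the outer membrane, fell from 557 and 551 to 137 and 127 CPM. The tricarboxylic acid cycle had 17 of 21 lower and 1 higher (median −0.63). Idh2 fell from 45.4 and 47.5 to 6.54 and 8.39 CPM, and Ogdh, the single member that was higher, rose from 268 and 263 to 391 and 394 CPM. Nuclear-encoded subunits of the respiratory chain and ATP synthase had 27 of 73 higher, 33 lower and a median of −0.03, near that of all genes. With library size alone 14 were higher and 51 lower, and with library sizes without Rn45s, globin and mitochondrial genes 20 and 46. Atp5b and Atp5a1, the abundant ATP synthase subunits, had log2 fold changes of −0.40 and −0.46, while Cox6b2 rose from 16.5 and 18.0 to 164 and 162 CPM. The SLC25 carriers of the inner membrane had 14 of 37 members higher and 16 lower. Slc25a37 (mitoferrin), which brings iron in for heme, rose from 27.0 and 22.8 to 604 and 602 CPM, and Slc25a39 from 249 and 241 to 2515 and 2448 CPM, while Slc25a5, an ADP/ATP carrier, fell from 1312 and 1331 to 666 and 661 CPM.

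Genes of acidic compartments mostly rose. All 16 tested subunits of the V-ATPase, the proton pump of lysosomes and endosomes, were higher, 8 at least 2-fold, with a median of 0.98. With library size alone the median was 0.60, with 14 higher and 0 lower. Atp6v0b rose from 65.6 and 67.0 to 367 and 353 CPM. Of 28 lysosomal hydrolases and membrane proteins 20 were higher, 12 at least 2-fold, and 7 were lower, none of them 2-fold (median 0.77). Library size alone gave 16 higher and 8 lower, 3 of the latter at least 2-fold (median 0.39). Among the lysosomal proteases, Ctsb rose from 162 and 160 CPM to 1852 and 1797 CPM. Ctsd rose from 318 and 332 to 1507 and 1472 CPM. Rab GTPases, which direct vesicles, had 25 of 38 higher and 10 lower (median 0.55), with Rab8b rising from 165 and 170 to 602 and 606 CPM. For the Rab genes library size alone gave 18 higher and 12 lower (median 0.17). The secretory side differed. COPI and COPII coat genes had 4 of 17 higher and 4 lower, with a median of 0.01 that flips to −0.37 with library size alone (1 higher, 14 lower) and to −0.18 with library sizes without Rn45s, globin and mitochondrial genes (2 higher, 11 lower). ER chaperones and disulfide isomerases had 12 of 14 lower and 2 higher (median −0.65), and ER translocation and N-glycosylation 17 of 28 lower and 7 higher. Rpn1, an oligosaccharyltransferase subunit, fell from 367 and 381 to 103 and 101 CPM.

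In the ubiquitin system, at least 2-fold changes were commoner among genes that select targets than in the proteasome, a difference that was not tested. Over all genes 19.7% were at least 2-fold higher and 17.4% at least 2-fold lower, and the proteasome was well below both shares. Proteasome subunits and assembly factors had 14 of 45 members higher and 23 lower, few at least 2-fold (1 and 3), with a median of −0.08. The activator Psme4 rose from 54.0 and 54.9 to 153 and 147 CPM. F-box proteins, which pick substrates for SCF ligases, had 29 of 48 higher and 9 lower, 16 and 5 of them at least 2-fold (median 0.65), and 22 further F-box genes had no count in the 4 libraries. For F-box genes library size alone gave 24 higher and 12 lower (median 0.27). Fbxo30 rose from 63.5 and 69.8 CPM to 416 and 430 CPM and Fbxo34 from 25.5 and 29.4 to 198 and 188 CPM. Of 28 ubiquitin-conjugating enzymes 14 were higher and 9 lower, with a median of 0.38. It was −0.000788 with library size alone, 0.217 for genes at 10 CPM or more and 0.201 without 200 nM replicate 1. Ube2l6, an enzyme that also conjugates ISG15, rose 12.5-fold, from 37.5 and 38.7 to 475 and 477 CPM, and Ube2c, which acts at mitotic exit, from 357 and 354 to 909 and 898 CPM. TRIM proteins had 16 of 29 higher and 8 lower, or 12 and 9 with library size alone. Trim10, known from erythroid maturation, rose from 70.8 and 69.4 to 528 and 535 CPM. Ubiquitin-specific proteases, which remove ubiquitin, were split, 14 of 43 higher and 18 lower.

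Transporter families changed in both directions, as did the genes tested as a whole (40.5% higher and 39.5% lower). Among 147 tested SLC genes, with the mitochondrial SLC25 carriers among them, 67 were higher, 45 at least 2-fold, and 58 lower, 33 at least 2-fold, with a median of 0.16 that flips to −0.22 with library size alone and to −0.03 with library sizes without Rn45s, globin and mitochondrial genes. A further 133 SLC genes had no count in the 4 libraries. The summed CPM of the tested and untested SLC genes went from 9307 to 19958, of which Slc4a1 was the largest part of the gain. ABC family genes, which include mitochondrial members such as Abcb10 and the ribosome recycling factor Abce1, had 10 of 22 higher and 11 lower, and most of these calls were at least 2-fold (8 and 7). Peroxide and superoxide defence had 11 of 21 higher and 5 lower, with a median of 0.33 that flips to −0.05 with library size alone. Gpx1, a glutathione peroxidase, rose from 938 and 906 to 3130 and 3097 CPM, and Sod2, the mitochondrial superoxide dismutase, fell from 327 and 337 to 136 and 127 CPM.

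The cytoskeleton changed by isoform. Of 11 tubulin genes 8 were higher, 7 at least 2-fold, and 3 lower. Tuba4a rose from 388 and 383 CPM to 2721 and 2706 CPM, while Tuba1b fell from 605 and 607 to 313 and 311 CPM and Tubb5, a beta-tubulin, went from 2079 and 2100 to 1842 and 1827 CPM. Actin cytoskeleton genes had 15 of 23 higher and 8 lower (median 0.43). The split was 12 to 10 with library size alone (median 0.05). Actb rose from 2678 and 2698 to 3664 and 3591 CPM, and Gsn (gelsolin), which severs actin filaments, from 5.46 and 3.91 to 124 and 119 CPM. Septins had 6 of 9 lower and 2 higher. Among 20 integrins and tetraspanins 12 were higher and 5 lower, with Itgb3, the beta-3 integrin, going from 8.22 and 7.31 to 412 and 396 CPM.

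Chromatin classes were mixed, with the histone demethylases as the most one-sided. Of 16 histone lysine demethylases 13 were higher and 2 lower (median 0.78), and Kdm3a rose from 67.3 and 66.5 to 221 and 195 CPM. With library size alone 9 were higher and 3 lower. Histone deacetylases and sirtuins had 4 of 18 higher and 7 lower, with Hdac5 rising from 10.6 and 14.2 to 109 and 102 CPM. SWI/SNF subunits had 3 of 9 higher and 4 lower, none at least 2-fold. Replication-dependent histone genes, whose mRNAs end without a poly(A) tail, were at low levels, 176 CPM in sum at 0 nM and 213 CPM at 200 nM over 68 genes. Smart-seq2 primes on poly(A), so these levels are not those of the histone mRNAs as a whole. Of 51 tested 8 were higher and 15 lower. The linker histone gene Hist1h1c rose from 7.97 and 7.25 to 51.4 and 55.8 CPM. Among replacement histones, H2afv (an H2A.Z form) rose from 69.5 and 63.9 to 156 and 150 CPM, while H2afy (macroH2A) fell from 88.3 and 85.6 to 14.3 and 16.4 CPM.

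**Figure D4:**
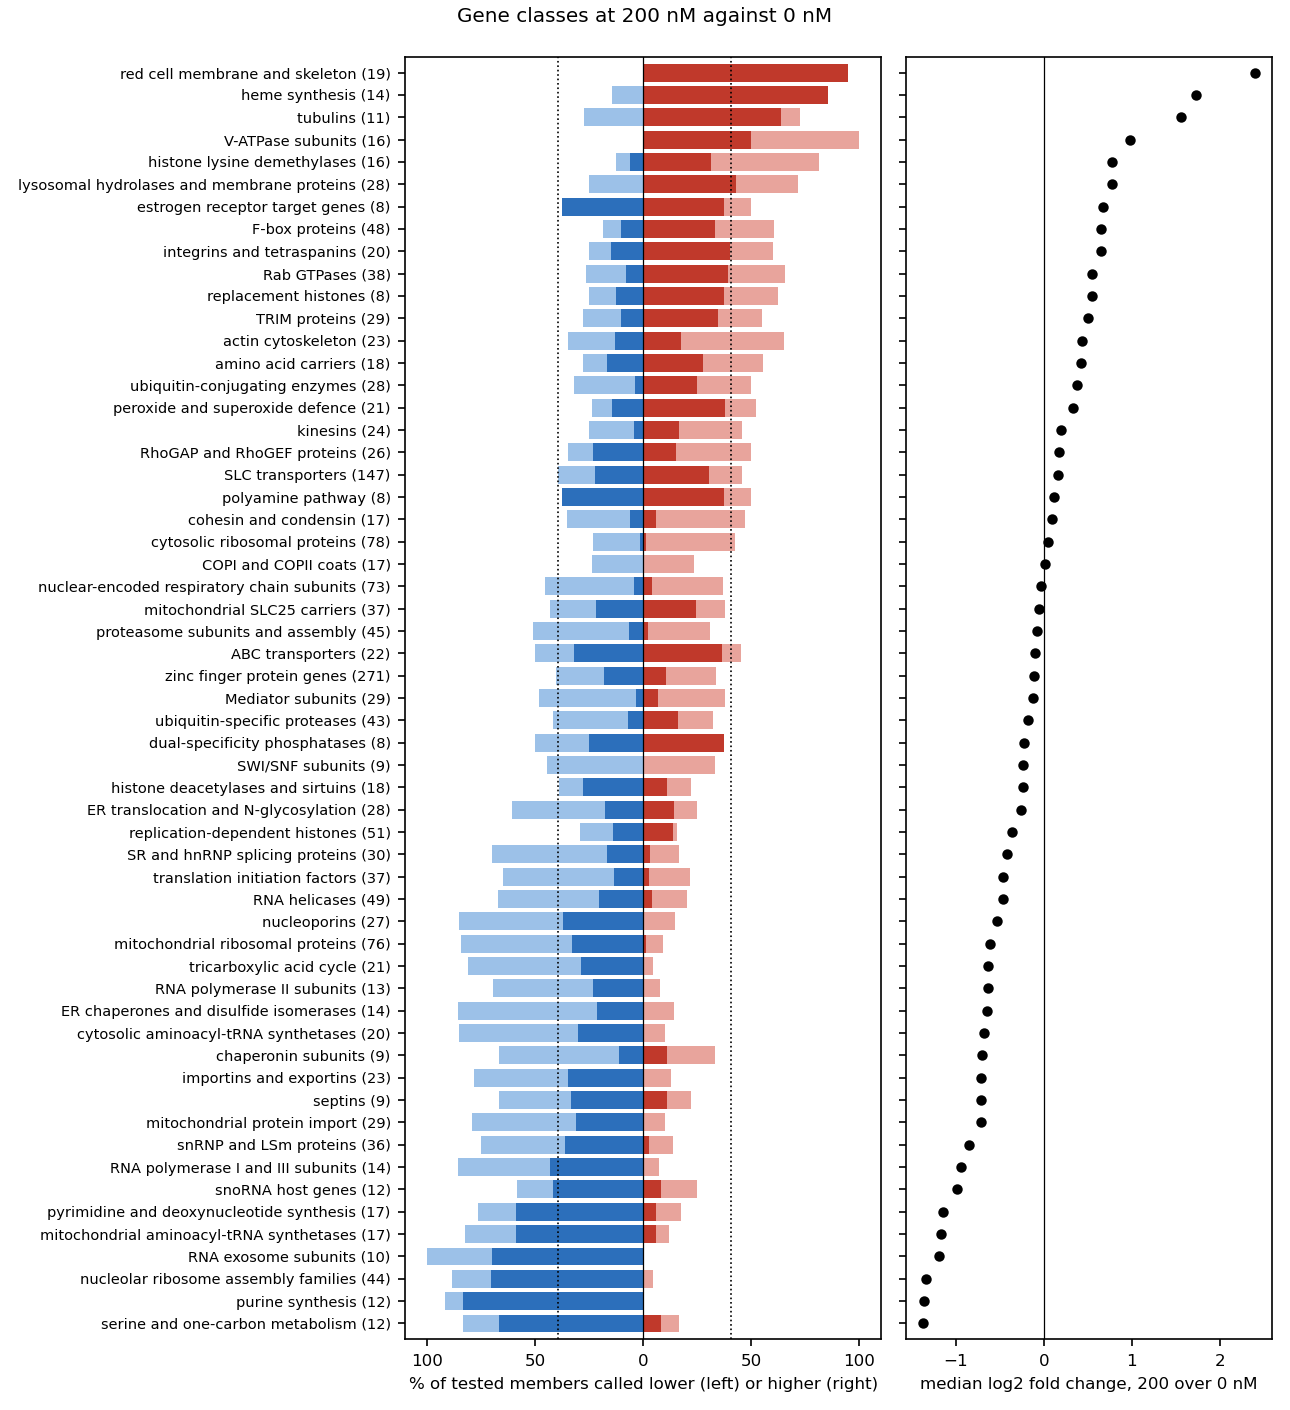
Gene classes with at least 8 tested members (number in brackets), ordered by median log2 fold change. Bars on the left panel give the percentage of tested members called higher (red, right) or lower (blue, left), dark parts those changed at least 2-fold, and dotted lines the 40.5% and 39.5% over all genes; points on the right panel are the medians, which all shift down with library size alone, where the median of all genes is −0.36 and those of ubiquitin-conjugating enzymes, peroxide defence, kinesins, RhoGAP and RhoGEF proteins, SLC transporters, polyamine genes, cohesin and condensin, cytosolic ribosomal proteins and COP coats flip to below 0.

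Some close relatives moved apart, which a class median hides. Among 1591 groups of genes with a shared symbol stem, 44 had a member at least 2-fold higher and another at least 2-fold lower, each at 50 CPM or more at the dose where it was higher. Over all genes 19.7% were at least 2-fold higher and 17.4% at least 2-fold lower, so such pairs also arise among unrelated genes. Whether they were more or less common within the groups was not tested. The first 8 pairs of known relatives, ranked by the smaller of the 2 changes, are described here. Their log2 fold changes ran from −4.53 to 4.26 with adjusted p from 1.41e-50 to 9.65e-08 (edgeR quasi-likelihood test, n = 2 per dose). Each direction was the same with library size alone. Being called and at least 2-fold changed was a condition of the choice, so the small adjusted p and opposite directions are no further result. A shared stem is a naming rule and no proof of common descent.

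Iron and nutrient receptors gave 3 of these pairs. Of the transferrin receptors, Tfrc rose, as given above, and Tfr2, the receptor that also senses iron, fell from 208 and 210 CPM to 21.7 and 23.1 CPM. Of the vitamin carriers, the thiamine carrier Slc19a2 rose from 50.1 and 46.2 to 169 and 194 CPM and the folate carrier Slc19a1 fell from 122 and 129 to 4.98 and 5.85 CPM, 23.2-fold. Of the monocarboxylate carrier family, Slc16a6 rose from 12.9 and 12.5 to 88.1 and 86.5 CPM and Slc16a1, the lactate carrier MCT1, fell from 219 and 209 to 62.0 and 64.3 CPM. In each of these pairs the 2 doses were separate for both members, which their selection as called genes made likely.

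The other pairs act in lipid metabolism, folding and the cytoskeleton. Abhd4, a lipase for N-acyl phospholipids, rose from 43.1 and 47.4 to 861 and 866 CPM, and Abhd11 fell from 78.0 and 74.5 to 14.2 and 14.7 CPM. Bag1, a cochaperone of Hsp70, rose from 13.6 and 10.3 to 57.7 and 71.4 CPM, and Bag2 fell from 268 and 267 to 75.3 and 77.5 CPM. Of the disulfide isomerases, Pdia2 rose from 18.3 and 18.4 to 180 and 179 CPM, and Pdia4 fell 3.23-fold from 60.7 and 61.9 CPM. Within each of these families the groups of both members were separate, which the selection of called genes made likely. Abi1, a subunit of the actin-regulating WAVE complex, rose from 77.8 and 71.3 to 242 and 251 CPM, and Abi2, its counterpart, fell from 98.4 and 99.6 to 16.4 and 13.6 CPM. Chchd7 rose from 37.5 and 36.0 to 117 and 116 CPM, and Chchd4, which drives oxidative import into the mitochondrial intermembrane space, fell from 162 and 160 to 27.8 and 27.4 CPM.

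Further pairs of the 44, chosen after their values were seen, include cell cycle and ion transport genes. Among D-type cyclins, which start the G1 phase, Ccnd3 rose from 316 and 318 to 1965 and 1894 CPM and Ccnd2 fell from 544 and 539 to 193 and 188 CPM. Among glutamine and neutral amino acid carriers, Slc38a5 rose from 7.67 and 7.31 to 160 and 154 CPM and Slc38a2 fell from 171 and 176 to 80.6 and 90.8 CPM. For these 4 genes the doses did not overlap, which their selection as called genes made likely. Among beta subunits of the sodium-potassium pump, Atp1b2 rose from 124 and 121 to 1083 and 1085 CPM and Atp1b3 fell from 133 and 139 to 60.6 and 58.0 CPM. Prdx4, the peroxiredoxin of the ER, fell from 105 and 106 to 47.9 and 43.7 CPM, opposite to Prdx2.

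**Figure D5:**
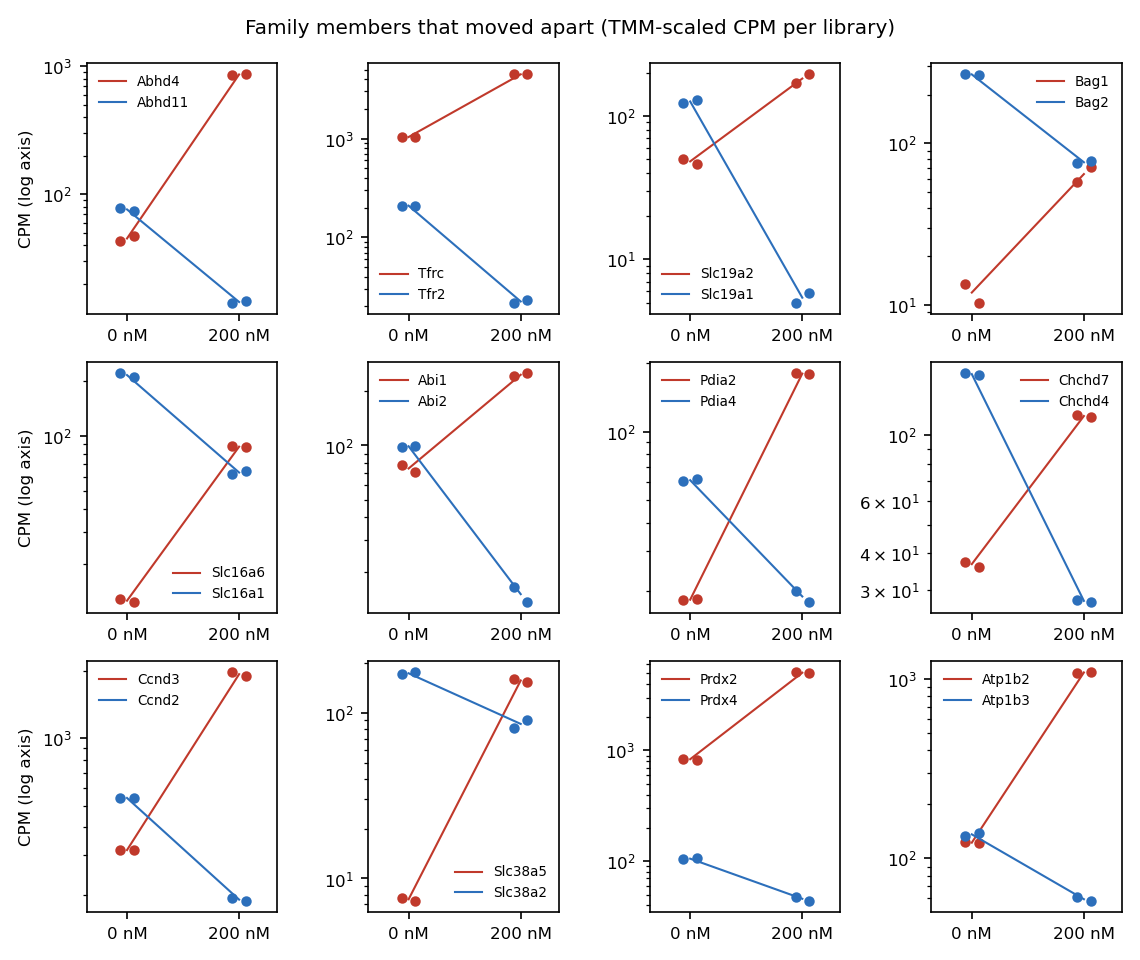
TMM-scaled CPM per library, on log axes that differ between panels, for 12 pairs of relatives at 0 and 200 nM; red is the member that rose, blue the one that fell, and lines join the means. Both libraries of a dose lie together in each panel, and the 2 members run in opposite directions, as the choice of pairs requires. Levels are not corrected for gene length, so heights are to be compared within a gene.

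The red cell programme and the markers of other blood cells frame these results. All 6 tested globin genes and 18 of 19 red cell membrane and skeleton genes were at least 2-fold higher, the latter with a median of 2.40, and so were 12 of 14 heme synthesis genes (median 1.73). Sptb, the erythroid beta-spectrin, rose from 235 and 230 to 2199 and 2077 CPM. Of the heme genes, 2 fell, among them Alas1, the form of the first enzyme found in most tissues, at 10.9 and 12.6 CPM and then 7.92 and 5.76 CPM. All 11 erythroid identity markers tested were higher, and their summed level went from 2730 to 2827 CPM at 0 nM to 31175 to 31626 CPM at 200 nM. Epor, the erythropoietin receptor, rose from 155 and 158 to 253 and 249 CPM, and Klf1 from 227 and 214 to 672 and 644 CPM.

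Megakaryocyte and platelet markers, a lineage that GATA1 also drives, rose in sum from 29.5 to 32.5 CPM to 634 to 654 CPM, mainly through Itgb3 and Tubb1. Of the 15 markers 7 were tested, of which 5 were higher and 1 (Gp5) lower, and 6 had no count in the 4 libraries, among them Vwf, Ppbp and Gp6. Granulocyte and macrophage markers summed to at most 4.24 CPM, mast cell and basophil markers to at most 8.75 CPM, lymphocyte markers to at most 5.03 CPM and fibroblast and endothelial markers to at most 0.553 CPM in any of the 4 libraries. The part of other cell types in the results above was not tested. Of 12 genes known from other cells as estrogen receptor targets, 8 were tested, 4 were higher and 3 lower, 3 in each direction at least 2-fold, and Greb1, Pgr and Tff1 had no count in the 4 libraries. Ctsd and Xbp1 were among the higher ones and Myb and Rara among the lower ones. Their summed level went from 526 to 1896 CPM, mainly through Ctsd, and the part of beta-estradiol itself cannot be told apart.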

How the data were processed

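RNA of 16 G1E-ER4 libraries was sequenced by Smart-seq2, and the 4 libraries at 0 nM and 200 nM beta-estradiol were compared. The values were deposited by the authors as 1 table of whole-number counts for each gene symbol and library, not normalized. The submitters' processing notes name bcl2fastq, STAR and mm10. The counting program, the annotation, the use of strand and the treatment of multiply aligned reads were not given in the sources used here. Reads of near-identical genes may be split or dropped, and reads of overlapping antisense genes cannot be told apart.

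The counts were fitted in R 4.3.3 with edgeR 4.0.16: filterByExpr by dose kept 10080 genes, TMM scaled the libraries, and a robust quasi-likelihood model of all 16 libraries, with dose as a factor, gave the contrast of 200 nM minus 0 nM. Genes with a Benjamini-Hochberg adjusted p under 0.05 were called. The standard error is the log2 fold change divided by the square root of F, and for large changes from few counts it can be too small. Gene classes were described by counts and medians without a test. The members and lists were chosen with earlier results of these data known.

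The genes named are the 12 called genes with the largest gain and the 12 with the largest loss of mean CPM that moved the same way in all 4 pairings of libraries, the 6 most abundant genes with an absolute log2 fold change under 0.1, the most abundant and most changed members of each class, and the first 8 family pairs that are known relatives. Unnamed gene models, pseudogenes, mitochondrial genes and Rn45s were not named this way. Some genes picked by these rules are not reported here. Genes chosen otherwise are marked in the text or serve as examples of a class. Gene positions and exon lengths are from GENCODE on GRCm38, and promoters from RefSeq.

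The procedure was tested on simulated data for this contrast, 10080 genes of which 200 changed. It called 52%, 76%, 94% and 100% of genes changed 1.25-, 1.5-, 2- and 4-fold, with 14 false calls among the unchanged genes. The changed genes were few and went up and down in equal number, whereas 80% of genes were called in the data. The simulation could thus not test the scaling, on which the split between directions depends. Alternatives were DESeq2 1.42.0, RLE size factors, library size alone, library size without Rn45s, globin and mitochondrial genes, other filters, the 4 libraries alone, the replicate number as a block, and each of the 4 libraries left out in turn.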

Additional observations from a re-analysis of the deposited data

How the results depend on the processing

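The counts of called genes kept within 1.5 times of their value in all but 1 case. Against 4086 genes higher and 3977 lower, DESeq2 gave 3825 and 3791, RLE size factors 4052 and 4003, no filter on low counts 4051 and 4103, at least 10 CPM in 2 libraries 3354 and 3332, and the 4 libraries alone 3969 and 3976. Library size alone gave 2819 and 5396, and raised the genes at least 2-fold lower from 1754 to 2722. Leaving out each of the 4 libraries in turn gave 3854 to 3881 higher, 3780 to 3840 lower, 1943 to 1972 at least 2-fold higher and 1729 to 1785 at least 2-fold lower.

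Deviations of libraries with the same replicate number did not go together: the correlation between 0 and 200 nM was −0.0015, and over the 28 pairs of doses it ran from −0.058 to 0.096. The samples share only a number, and with it as a block 4082 genes were higher and 3966 lower.

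Some class medians changed sign, the largest of them 0.38 (ubiquitin-conjugating enzymes) in the main fit. With library size alone the classes that changed sign were cytosolic ribosomal proteins (−0.338), ubiquitin-conjugating enzymes (−0.000788), COPI and COPII coats (−0.371), SLC transporters (−0.222), polyamine genes (−0.27), peroxide defence (−0.0471), kinesins (−0.189), cohesin and condensin (−0.291), RhoGAP and RhoGEF proteins (−0.211) and nuclear long noncoding RNAs (−0.138). With library size without Rn45s, globin and mitochondrial genes they were cytosolic ribosomal proteins (−0.149), COP coats (−0.182), SLC transporters (−0.0339), polyamine genes (−0.0805), kinesins (−0.000223), cohesin and condensin (−0.102) and RhoGAP and RhoGEF proteins (−0.0219). Other settings turned COP coats (−0.0209 without a filter, −0.0049 with 4 libraries, −0.0186 to 0.00884 with a library left out), zinc finger genes (0.0653 at 10 CPM) and SLC25 carriers (0.0722 at 10 CPM, −0.0377 to 0.0614 with a library left out). Among named genes, library size alone gave Cox4i1 −0.35, Metap2 −0.32, Rpl4 −0.21, Rrm1 −0.25, Fars2 −0.01738 and Gas5 −0.009445, and the other library size Cox4i1 −0.17, Metap2 −0.13, Rpl4 −0.02398 and Rrm1 −0.06019. Apart from the construction of the scalings, the cause was not tested. In the simulation, with n = 2 per dose and few changed genes, the smallest changes were called in only 52% of genes.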

Other observations

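Noncoding RNAs changed too, in both directions. Malat1, an abundant nuclear RNA, rose from 115 and 115 CPM at 0 nM to 598 and 593 CPM at 200 nM, and Neat1, the scaffold of paraspeckles, from 9.08 and 9.65 to 80.4 and 76.8 CPM, log2 fold changes of 2.37 ± 0.04 and 3.07 ± 0.10. Of 12 tested host genes of snoRNAs, which guide the modification of ribosomal RNA, 7 were lower and 3 higher (median −0.99, or −0.56 without 200 nM replicate 2), and of 30 genes annotated as snoRNAs themselves 11 were lower and 1 higher (median −1.16). Reads of a snoRNA and of its host intron cannot be told apart in these counts. Smart-seq2 primes on poly(A), so these levels may not be those of the snoRNAs themselves. Snhg4 fell from 79.8 and 79.3 to 12.7 and 12.7 CPM, while Gas5 was at 396 and 390 CPM and then at 496 and 521 CPM, a log2 fold change of 0.37 that was −0.01 with library size alone. Genes annotated as antisense had 45 of 97 higher and 18 lower (median 0.48), and their reads may belong to the overlapping genes.

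Several of the 24 genes with the largest gains or losses had not levelled off between the highest doses. Beta-s stood at a mean of 40552 CPM at 150 nM and 55375 CPM at 200 nM, Slc4a1 at 4763 and 6685 CPM, and Alas2 at 2700 and 4321 CPM. Ncl went from 1563 to 1159 CPM, Ldha from 670 to 397 CPM and Hspd1 from 498 to 325 CPM between the same doses (n = 2 each). The 200 nM levels are thus the end of the dose range that was tested and were not shown to be a plateau.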
